A study of Caenorhabditis elegans with 3 samples.

Results

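The 10 genes described here encode the core machinery that releases synaptic vesicles and makes neuropeptides in Caenorhabditis elegans. They were chosen by name, as the rows of the deposited table for unc-13 (ZK524.2), snb-1 (T10H9.4), unc-64 (F56A8.7), ric-4 (Y22F5A.3), snt-1 (F31E8.2), unc-18 (F27D9.1), unc-10 (T10A3.1), unc-31 (ZK897.1), egl-3 (C51E3.7) and egl-21 (F01D4.4), 10 of 20392 measured genes. All 10 rows were found, and none had the same values as another gene of the table. The RNA came from intact wild-type worms (N2 Bristol) in the middle of the last larval stage, L4, taken at 29 h in synchronized cultures that fed on OP50 at 25 °C without further treatment. Libraries from ribosomal-RNA-depleted total RNA gave 1 group of 3 replicates, which the submitters call independent, so no genotype, treatment or stage was compared. Levels are in TPM, the authors' estimate of transcript abundance per gene, scaled for the length of the transcript and for the sum of the library. TPM carries no read count, so the sequencing depth of a value is unknown. Errors are the SD over the 3 libraries.

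A chemical synapse releases transmitter when a vesicle fuses with the plasma membrane. Fusion is driven by SNARE proteins of the vesicle (synaptobrevin) and of the plasma membrane (syntaxin and SNAP-25), which zip into one bundle. Other proteins dock and prime the vesicle and couple fusion to calcium. Neuropeptides travel in dense core vesicles, where enzymes cut and trim them from precursor proteins, and these vesicles need a priming factor of their own. Many of these genes were first found in C. elegans through mutants with uncoordinated movement (unc) or defective egg laying (egl).

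Each of the 10 genes was detected, meaning at least 1 TPM in every library, a level that 61.1% of the 20392 genes reached. Mean levels spanned 28.0-fold, from snb-1 at the top to unc-10 at the bottom. The median log2(TPM + 1) of the 10 genes was 4.46 ± 0.05 (SD, n = 3), beside 2.13 ± 0.05 over all genes and 3.39 ± 0.02 over detected genes. Their sum was 214, 214 and 221 TPM in replicates 1, 2 and 3, which is 0.0216% ± 0.000409 of all TPM. In whole worms, the number of cells that express a gene and the RNA per cell cannot be told apart.

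**Figure D1:**
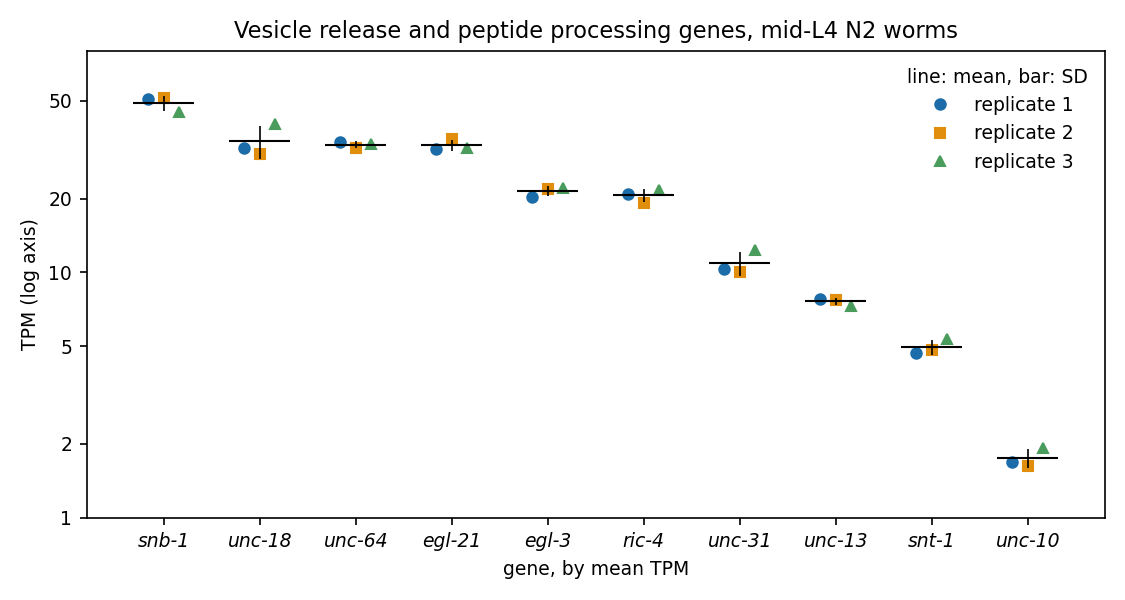
TPM of the 10 genes in each of the 3 libraries on a log axis, with genes ordered by mean TPM, a line at the mean and a bar of 1 SD. The levels fall from 48.9 TPM for snb-1 to 1.75 TPM for unc-10, and unc-18, unc-64 and egl-21 share nearly the same level, as do egl-3 and ric-4.

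The SNARE genes held the highest summed level of the functional groups, 103 ± 2.92 TPM (SD, n = 3), beside 48.6 ± 5.44 TPM for docking, priming and calcium sensing and 65.2 ± 2.53 TPM for dense core vesicles and peptide processing. snb-1, synaptobrevin, the SNARE of the synaptic vesicle, had 50.8, 51.2 and 44.8 TPM in replicates 1, 2 and 3, a mean of 48.9 ± 3.54 (SD, n = 3). This was the highest level of the 10 genes in every library, and 86.8% of detected genes had a lower mean. snb-1 is also the most compact of these genes, with 1 annotated transcript of 2 exons that codes for 109 residues on the reverse strand of chromosome V (6655562 to 6656501, WBcel235).

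unc-64, syntaxin, the plasma membrane SNARE that carries its own membrane anchor, had 34.1, 32.0 and 33.3 TPM, a mean of 33.17 ± 1.06. It varied least of the 10 genes, with a coefficient of variation (CV) of 3.20%. It lies on chromosome III (13277258 to 13283887), and each of its 3 annotated transcripts codes for 291 residues. The protein-coding gene Y43F4B.3 (set-25), at a mean of 4.55 TPM, overlaps it on the opposite strand. The library kit keeps strand, but the sources used here do not say whether the quantification used it.

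ric-4 encodes the SNAP-25 homolog, which gives the bundle its remaining helices and has no membrane-spanning segment. Its levels were 20.8, 19.2 and 21.7 TPM, a mean of 20.6 ± 1.26, and its 2 transcripts on chromosome V (10261131 to 10270314) code for 207 and 234 residues. Within each library the SNARE genes stood in the order snb-1, unc-64, ric-4. The snb-1 to unc-64 ratio was 1.49, 1.60 and 1.34, and the ric-4 to unc-64 ratio was 0.610, 0.600 and 0.651. Both ratios stayed on their side of 1 in 3 of 3 libraries.

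Among the genes for docking, priming and calcium sensing, 1 was as abundant as the SNARE genes and the others were far lower. unc-18 encodes the Munc18 protein, which binds syntaxin and is needed for docking and fusion. It had 32.0, 30.5 and 40.2 TPM, a mean of 34.2 ± 5.21, and lies on the X chromosome (7682896 to 7686037). Replicate 3 stood above the other libraries, which gave unc-18 the largest CV of the 10 genes, 15.2%. Its ratio to its binding partner unc-64 was 0.938, 0.953 and 1.21, so the order of these genes in replicate 3 was opposite to that in replicates 1 and 2.

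unc-13 encodes the priming factor that helps syntaxin open and enter the SNARE bundle. It had 7.79, 7.75 and 7.30 TPM, a mean of 7.61 ± 0.272, with little difference between libraries. Its level was 0.230 ± 0.0117 of that of unc-64. The gene spans 31332 bp of chromosome I (7422785 to 7454116), the longest span of the 10, and its 11 annotated transcripts code for 1465 to 2155 residues.

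unc-10 encodes RIM, an active zone scaffold that links vesicles, UNC-13 and calcium channels. It had 1.69, 1.62 and 1.92 TPM, a mean of 1.75 ± 0.158, the lowest level of the 10 genes in each library. Only 4.48% of detected genes had a lower mean. unc-10 also lies on X (7272317 to 7280322), and its level was 0.230 ± 0.0293 of that of unc-13.

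snt-1 encodes synaptotagmin, the calcium sensor on the synaptic vesicle. It had 4.69, 4.82 and 5.36 TPM, a mean of 4.95 ± 0.356, on chromosome II (6810963 to 6816433). The ratio of snt-1 to snb-1, the other vesicle protein among the 10, was 0.0923, 0.0941 and 0.119. The ranges of these levels lay far apart.

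The genes for dense core vesicles and peptide processing spanned a narrower range than those for docking, priming and calcium sensing. egl-21 encodes the carboxypeptidase E homolog, which trims basic residues from the ends of cut neuropeptides. It had 31.8, 34.9 and 32.2 TPM, a mean of 33.0 ± 1.70, from a single annotated transcript for 472 residues on chromosome IV (10478442 to 10481844). egl-3 encodes the proprotein convertase that acts before it and cuts precursors at pairs of basic residues. It had 20.3, 21.97 and 22.02 TPM, a mean of 21.4 ± 1.01, on chromosome V (10169177 to 10173753). The egl-3 to egl-21 ratio was 0.638, 0.629 and 0.683, below 1 in 3 of 3 libraries. These enzymes stood within the range of the SNARE genes, as did unc-18, and above the priming factor unc-13.

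unc-31 encodes CAPS, which primes dense core vesicles. It had 10.3, 10.003 and 12.3 TPM, a mean of 10.9 ± 1.24, on chromosome IV (12773867 to 12788354). This exceeded the synaptic vesicle priming gene unc-13 in 3 of 3 libraries, at ratios of 1.33, 1.29 and 1.69, and stayed below egl-3, with an egl-3 to unc-31 ratio of 1.98 ± 0.203. unc-31 has 19 annotated transcripts, the most of the 10 genes, and the shortest of them measures 54 nt. It is the only member with an annotated transcript under 300 nt. Because TPM divides by length, such a transcript can weigh heavily if it was in the authors' index, and its part in the unc-31 level was not tested.

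**Figure D2:**
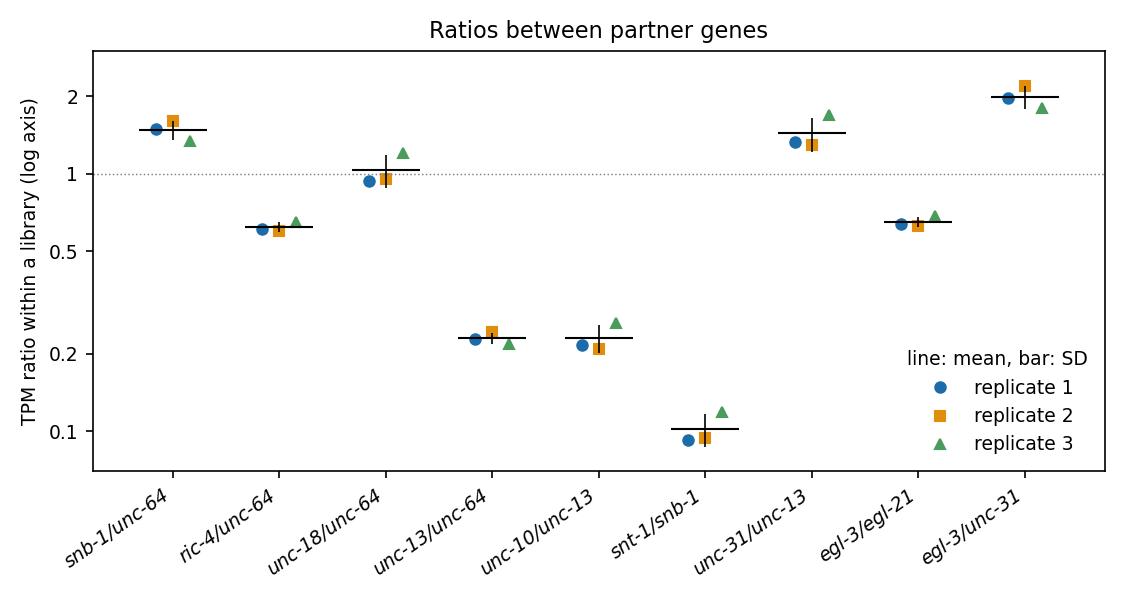
Ratios of TPM between 9 pairs of partner genes in each library, on a log axis with a dotted line at 1, a line at the mean and a bar of 1 SD. The unc-18 to unc-64 ratio lies on both sides of 1, and the other 8 ratios stay on 1 side in 3 of 3 libraries.

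In the order of mean levels, 6 of the 9 neighbouring pairs had ranges over the 3 libraries that did not overlap. snb-1 stood above unc-18 in 3 of 3 libraries. unc-18, unc-64 and egl-21 could not be ordered, since their ranges overlapped and unc-18 exceeded unc-64 in 1 of 3 libraries only. egl-21 stood clear of egl-3, at a ratio of 1.54 ± 0.0674, while egl-3 and ric-4 overlapped. Below them ric-4, unc-31, unc-13, snt-1 and unc-10 followed without overlap, and the widest step was the last, with a snt-1 to unc-10 ratio of 2.84 ± 0.109. With 3 libraries no exact permutation test can fall below 0.05, so these steps are given by their ranges and not by a p-value.

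The genes with the longest coding sequences stood in the lower part of this order. unc-13, unc-10 and unc-31 code for up to 2155, 1563 and 1401 residues, and they were the first, the second and the third in coding length. snb-1, with the shortest coding sequence, was highest. Over the 10 genes, Spearman's rho between longest coding length and mean TPM was -0.59, beside -0.14 over 12233 detected protein-coding genes. For the number of annotated transcripts in place of coding length, rho was also -0.59 over the 10 genes, beside 0.04 over the 12233. All points share the same 3 libraries and a unit that divides by length, so this is a description. snt-1 had the second lowest level, with a product of up to 443 residues, shorter than those of most of the 10 genes. Its longest coding length, 1329 nt, still exceeded the median of 1065 nt over detected protein-coding genes.

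The 10 genes varied little between libraries. Their median CV was 6.64%, beside 12.1% over detected genes, and 9 of the 10 lay below that value, with unc-18 above it. This was not particular to them. The lists of the wider pathway described below also had median CVs under 12.1%. These ran from 6.71% for dense core vesicle maturation and peptide processing to 11.7% for the active zone. None of the 10 differed 2-fold or more between its highest and lowest library, a difference that 15.4% of the 12454 detected genes showed. A set of 10 genes can easily hold none at that share, so this count says little about them. The CVs were also not set against genes of like level. The median log2(TPM + 1) of the 10 genes was the higher, 4.46 beside 3.39 over detected genes. The highest to lowest ratio ran from 1.07 for unc-64 to 1.32 for unc-18. Without replicate 3 the median CV was 3.15%, and it was 7.33% without replicate 2 and 8.04% without replicate 1. These values rest on fewer libraries than the 6.64%, and those of all detected genes were not computed for comparison. Replicate 3 held the highest value of 6 of the 10 genes, namely unc-18, unc-31, unc-10, snt-1, ric-4 and egl-3, while snb-1 and unc-13 were lowest there. Of all detected genes 40.2% were highest in replicate 3.

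**Figure D3:**
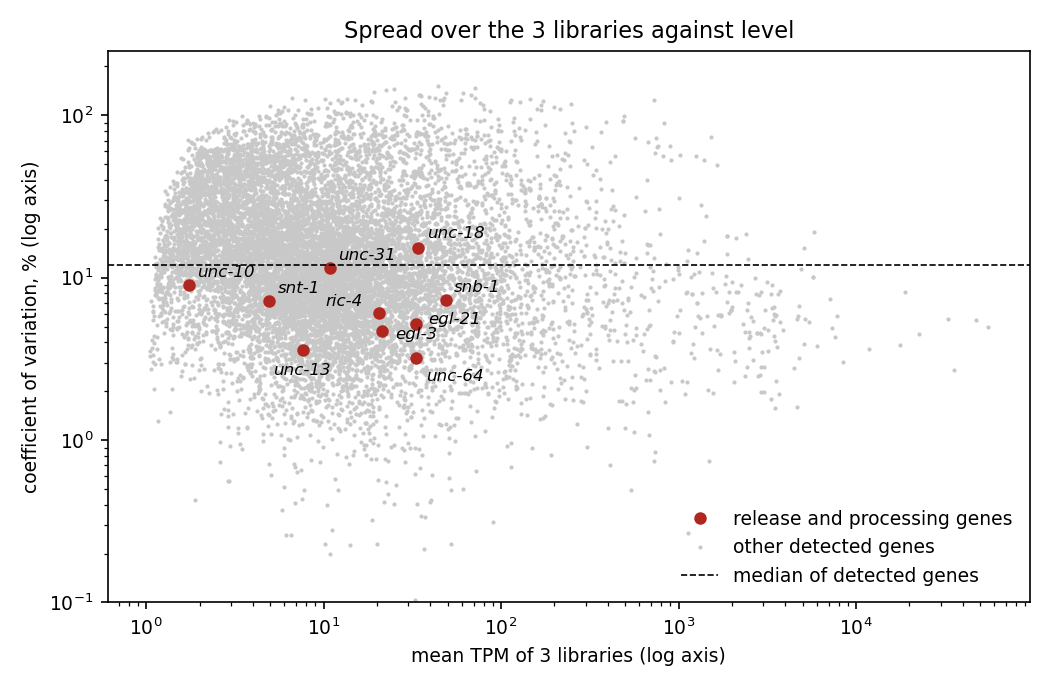
CV over the 3 libraries against mean TPM, both on log axes, for the 10 genes in red and the other detected genes in grey, with a dashed line at the detected-gene median of 12.1%. The 10 genes lie between 3.20% and 15.2%, and unc-18 is the only one above the line.

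Marker lists of several tissues were present in every library. The 20 neuron markers summed to 354, 340 and 322 TPM, of which the widely used tubulin gene tba-1 contributed the larger part. Without it the other 19 summed to 140, 147 and 153 TPM. Of these 19, 16 were detected, beside 61.1% of all genes, and 12 were highest in replicate 3, beside 36.5% of all genes. Body wall muscle markers summed to 3906, 3929 and 4074 TPM, intestine markers to 4997, 5540 and 5184 TPM and germ line markers to 218, 214 and 221 TPM. Epidermis markers summed to 369, 251 and 148 TPM, the only list that differed more than 2-fold between libraries, and the adult collagen gene col-19 was at 0 or close to it. The part of these differences in the levels of the 10 genes was not tested.

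Several of the 10 genes belong to families in which some relatives serve other membranes or cells. For 7 of them, 32 listed relatives were set beside the chosen gene, in RNA of whole worms that does not show the cells of origin. The ranges of 27 relatives lay wholly below the chosen gene of their family, 4 lay wholly above it and 1 overlapped. Most detected genes of any kind also had lower means than these genes, apart from snt-1. The share was 86.8% for snb-1, 81.5% for unc-64, 82.0% for unc-18 and 81.5% for egl-21. It was 73.4% for egl-3, 72.4% for ric-4 and 28.3% for snt-1. The count of lower relatives is thus no sign of a trait of the families. Near-identical sequences were not examined, so reads shared between relatives could shift levels within a family.

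snb-1 exceeded all 6 other listed synaptobrevin or VAMP genes. The nearest was snb-2, at 19.8, 24.2 and 29.9 TPM, and then vamp-8, at 9.85, 16.6 and 33.5 TPM, and vamp-7 averaged 7.83 ± 0.920. Several relatives were unlike snb-1 in their spread. snb-5 had 6.17, 1.69 and 0.162 TPM and snb-6 had 8.72, 4.76 and 1.91 TPM, both highest in replicate 1, whereas vamp-8 was highest in replicate 3. snb-7 averaged 0.451 ± 0.215 TPM and, like snb-5, was not detected in all libraries. snb-1 made up 49.4%, 48.0% and 37.5% of the summed TPM of the 7 genes, with the lowest share in replicate 3, where vamp-8 and snb-2 were highest.

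unc-64 exceeded all 9 other listed syntaxin genes. syx-5, a syntaxin of the Golgi, averaged 23.6 ± 2.41 TPM and syx-7 22.2 ± 3.21 TPM, and the lowest were syx-2 at 4.86 ± 1.06 and syx-3 at 3.93 ± 0.743. Between these stood syx-18 at 12.6 ± 1.38, syx-16 at 10.7 ± 0.799, syx-4 at 8.88 ± 0.776, syx-17 at 8.50 ± 0.131 and syx-6 at 5.10 ± 0.684. unc-64 held 24.9% ± 0.532 of the summed level of the 10 syntaxin genes.

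unc-18 was likewise the highest of its family. Its relatives work in Golgi and endosomal or lysosomal traffic, and the nearest was sly-1, at 17.9 ± 2.34 TPM. vps-33.1, vps-45 and vps-33.2 averaged 8.44 ± 0.701, 7.81 ± 0.564 and 7.56 ± 0.264 TPM.

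For the SNAP-25 and synaptotagmin families ric-4 and snt-1 were not the highest. snap-29, which serves general membrane traffic, had 36.6, 36.9 and 35.1 TPM, above ric-4 in 3 of 3 libraries, whereas aex-4, a family member known from the intestine, had 1.65, 1.65 and 1.995 TPM. snt-4 had 14.2, 15.6 and 15.6 TPM and snt-2 had 7.64, 7.71 and 7.28 TPM, both above snt-1 in every library. snt-5 overlapped snt-1, at 4.16 ± 0.975 TPM, and snt-6, snt-3 and snt-7 stood below it at 3.67 ± 0.165, 2.62 ± 0.667 and 1.17 ± 0.136 TPM. snt-1 held 12.6% ± 0.452 of the summed level of the 7 synaptotagmin genes.

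Among the proprotein convertases, bli-4, which processes cuticle collagens, exceeded egl-3, with 52.4, 43.6 and 33.6 TPM. kpc-1, the furin-like convertase, averaged 9.79 ± 0.799 TPM and aex-5, known from the intestine, 8.08 ± 0.499 TPM, both below egl-3. egl-3 thus held 22.1%, 26.8% and 29.8% of the summed level of the 4 convertase genes, with the lowest share in replicate 1, where bli-4 was highest. egl-21 was the highest of the 3 listed carboxypeptidase genes, above cpd-1 at 18.3 ± 3.57 TPM and cpd-2 at 3.31 ± 0.0367 TPM.

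**Figure D4:**
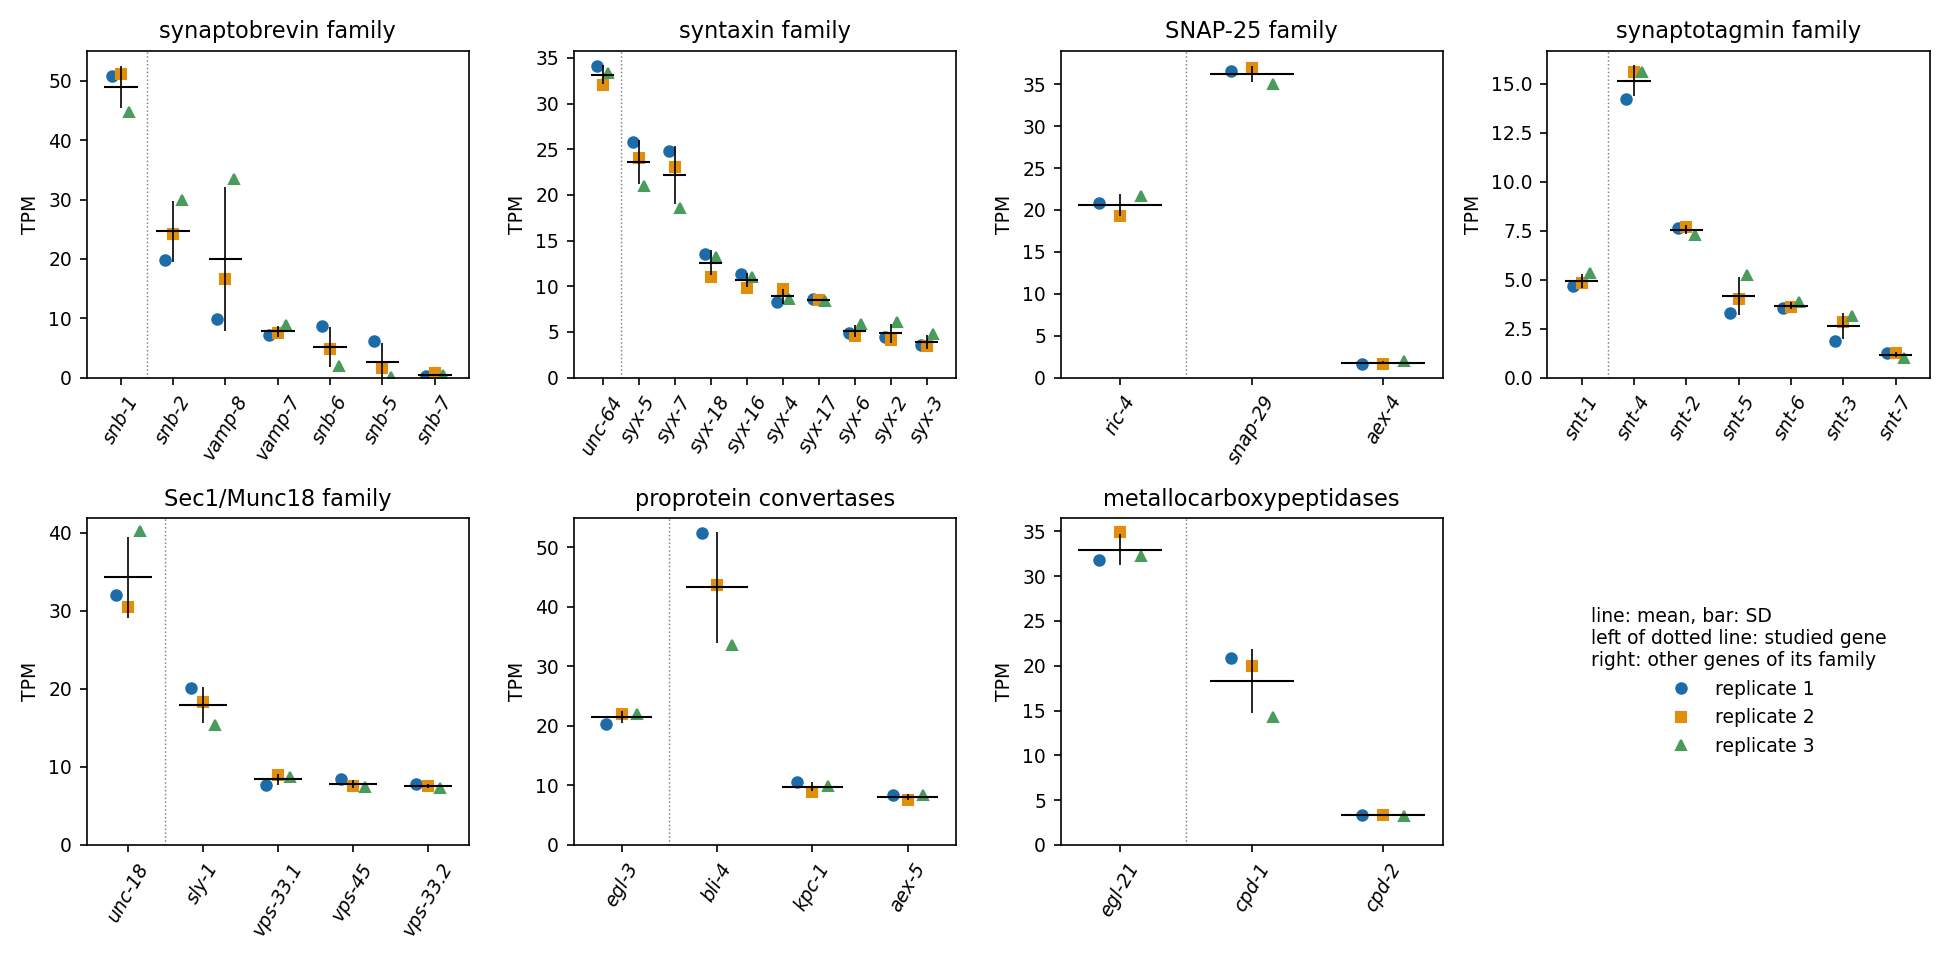
TPM of 7 of the 10 genes (left of the dotted line in each panel) and of the other genes of their families, per library, with a line at the mean, a bar of 1 SD and axes that start at 0. snb-1, unc-64, unc-18 and egl-21 are the highest of their families, while ric-4, snt-1 and egl-3 stand below 1 or 2 relatives.

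In the wider pathway, 50 of 51 listed genes were detected, beside 61.1% of all genes. The exception was the active zone gene syd-1 at 1.19, 0.914 and 1.29 TPM. The median log2(TPM + 1) of the 10 genes, 4.46 ± 0.05, stood beside 3.24 ± 0.34 for 14 SNARE regulators and vesicle proteins, 2.05 ± 0.07 for 10 active zone genes, 3.54 ± 0.06 for 10 endocytosis genes and 3.60 ± 0.03 for 17 genes of dense core vesicle maturation and peptide processing. The highest active zone genes, all above unc-10, were unc-36, a calcium channel subunit, at 8.01 ± 0.967 TPM, ccb-1, another, at 7.38 ± 0.833 and rpm-1, a ubiquitin ligase, at 5.33 ± 0.280.

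Among SNARE regulators and vesicle proteins, snap-1 and nsf-1, which take used SNARE bundles apart, averaged 29.6 ± 0.982 and 27.3 ± 2.82 TPM, followed by scm-1, a secretory carrier membrane protein, at 23.4 ± 3.39. The lowest was the synapsin gene snn-1 at 1.98 ± 0.120. The complexin gene cpx-2 had 5.004, 6.98 and 12.6 TPM, the only pathway gene that differed 2-fold or more between libraries. In endocytosis, the clathrin heavy chain gene chc-1 led at 61.2 ± 5.77 TPM, followed by the clathrin adaptor gene apa-2 at 17.5 ± 2.35 and the endophilin gene unc-57 at 11.9 ± 0.263, and unc-41 was lowest at 2.53 ± 0.288.

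The highest genes of the dense core vesicle list had means above those of egl-3 and egl-21. unc-108, a Rab GTPase with an annotated transcript of 210 nt, averaged 44.5 ± 0.779 TPM, and bli-4, already described, 43.2 ± 9.39. pgal-1, the lyase of peptide amidation, followed at 42.1 ± 2.77 and sbt-1, the chaperone of the EGL-3 convertase, at 41.9 ± 1.71. The lowest was rund-1 at 2.20 ± 0.161.

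**Figure D5:**
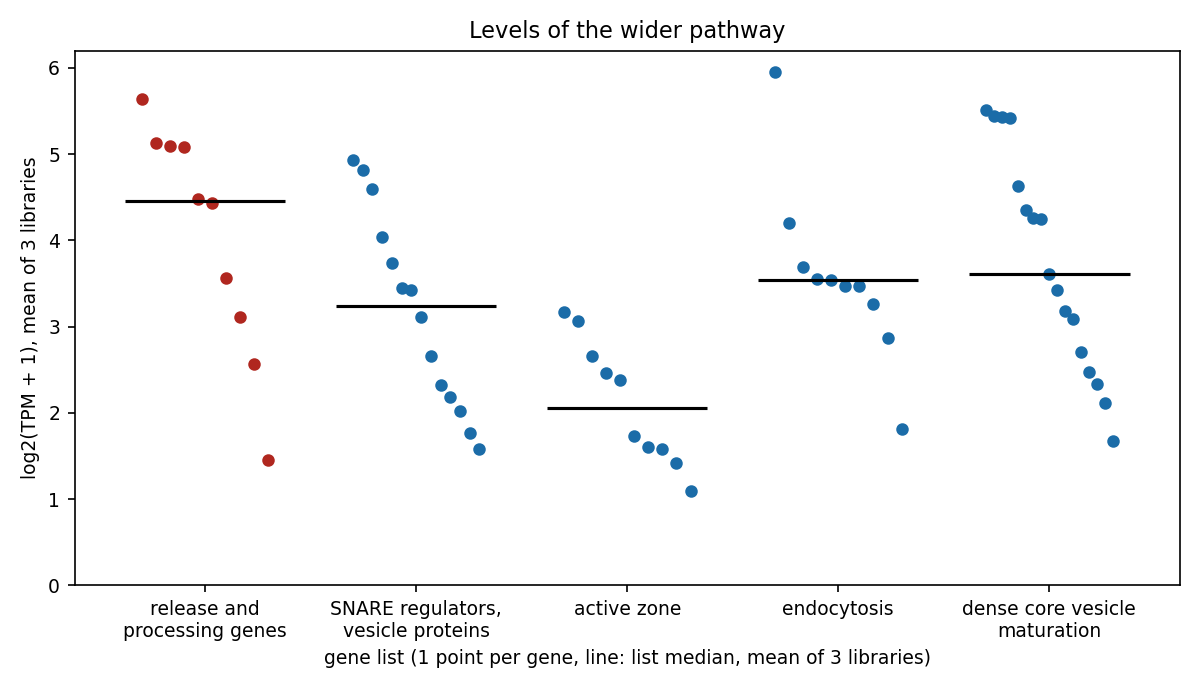
Mean log2(TPM + 1) over the 3 libraries, 1 point per gene, for the 10 release and processing genes in red and 4 lists of the wider pathway in blue, with a line at each list's median. The median of the 10 genes is 4.46, and the active zone list is lowest at 2.05.

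For each of the 10 genes, the most alike of the 51 pathway genes was found by the root mean square difference of log2(TPM + 1) over the 3 libraries, which measures level more than pattern. The closest match was between snt-1 and aex-6, a Rab GTPase gene, at 0.10. unc-31 was nearest to pkc-1, a protein kinase C gene, at 0.10, unc-13 to hid-1 at 0.11 and unc-10 to the active zone gene rimb-1 at 0.12. For unc-10 the synapsin gene snn-1 was nearly as close, at 0.127 against 0.124 for rimb-1. The pseudocount of 1 narrows differences between genes as low as these, so the match of unc-10 may depend on it. egl-3 and ric-4 were both nearest to ida-1, a dense core vesicle membrane protein, at 0.15 and 0.17. egl-21, unc-64 and unc-18 were nearest to snap-1, at 0.15, 0.18 and 0.26, and snb-1 to unc-108 at 0.16.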

How the data were processed

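Trizol extraction and DNase treatment were followed by Ribo-Zero Gold depletion of ribosomal RNA and a stranded TruSeq total RNA preparation, per the labels' protocols. Abundance was estimated with kallisto, per the submitters' processing notes. Its version, index and annotation are not given in the sources used. The authors deposited TPM per gene for 3 libraries and their mean, and each library sums to 1000000.

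Positions and lengths come from Ensembl release 115 of WBcel235, matched by sequence name (20136 of 20392 names, 98.7%), which the authors may not have used, and symbols to RefSeq. Coding lengths are from that annotation, and no sequence is shown. Levels of lists are medians of log2(TPM + 1). Only 1 group exists, so no test was run. Summaries were computed with Python 3.11.15, numpy 2.4.6 and pandas 2.3.3 and tested on simulated data. The 10 genes and the lists were chosen with earlier results of these data known. Beside the 10 genes, the text names every family relative, the 3 highest and the lowest gene of each pathway list and the pathway gene nearest to each of the 10. Genes outside this rule, such as cpx-2, were named after their values were seen. The marker opt-2 matched no name.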

Additional observations from a re-analysis of the deposited data

How the results depend on the processing

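No paired analysis was possible because the series holds 1 group. All 10 genes were detected at 1 TPM in every library, which by definition also holds at 0.5 TPM or with fewer libraries. At 5 TPM, 8 of 10 were detected, and the share of all genes at that limit was not computed. The median log2(TPM + 1) of the 10 genes was 4.46, and it was 4.40 with a pseudocount of 0.1, 4.70 with 5 and 5.04 when totals left out genes with a transcript under 300 nt. It exceeded that of all genes by 2.33, and that of the genes averaging 1 TPM or more by 1.22. The 10 genes held 0.0216% of TPM, and 0.0488% of the total without the 100 most abundant genes. At 5 TPM, 8 of 14 SNARE regulators and 3 of 10 active zone genes were detected, again with no share of all genes to set beside them. With a pseudocount of 5 the list medians were 3.76 for SNARE regulators, 3.04 for the active zone, 3.97 for endocytosis and 4.01 for dense core vesicles, and with 0.1 they were 1.69, 3.43 and 3.49 for the last 3. These shifts follow from the pseudocount, total or limit itself. Leaving out 1 of 3 libraries cannot move a mean by more than its SD. It was therefore no check of the mean ratios or median levels. No count moved by more than 1.5 times, though a count of detected genes could then only stay or rise. Ranges can only narrow when a library is left out, and 7 neighbouring pairs then did not overlap. The median CV ran from 3.15% without replicate 3 to 8.04% without replicate 1. The summed neuron markers, 339 TPM, were 147 TPM without tba-1, a choice made after the values were seen. Without read counts, the precision set by depth is unknown.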

Other observations

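snb-1 lies 112 bp from syx-18, another SNARE gene (syntaxin family, T10H9.3), on the same strand of chromosome V, with no other annotated protein-coding gene closer. Their levels differed, at 50.8, 51.2 and 44.8 TPM for snb-1 and a mean of 12.6 ± 1.38 TPM for syx-18 (SD, n = 3). Some other near neighbours stood apart in level and some did not. ric-4 lies 570 bp from sri-18, which averaged 0.00920 TPM, and egl-21 lies 189 bp from bgnt-1.1 on the opposite strand, which averaged 0.115 TPM. unc-18 and its neighbour clik-2, 602 bp away on the opposite strand, had means of 34.2 and 37.2 TPM. unc-13 lies 543 bp from the sperm gene spe-4, and their means were 7.61 and 8.16 TPM.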
